A study of Mus musculus with 21 samples.

Results

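The variable segments of the immunoglobulin light chains were followed through 21 libraries of mouse podocyte fractions. Members were taken by a rule with 2 parts, a symbol that starts with Igkv (kappa) or Iglv (lambda) and at least 10 raw counts summed over all libraries. Among 27179 genes counted, 106 were such segments, and 101 of them were members, 98 kappa and 3 lambda. The members were thus chosen by their summed counts, and a segment could enter through the older libraries alone. At least 10 counts summed over a group were found for 78 members in young, 100 in saline and 99 in MCC950 libraries. Just inside the threshold lay *Igkv7-33* with 12 counts and *Igkv5-37* with 25. Just outside it lay *Igkv18-36* with 8 counts, *Igkv20-101-2* and *Igkv8-26* with 2 each, and *Igkv13-71-1* and *Igkv1-35* with 0.

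The study asked how aging and inhibition of the NLRP3 inflammasome change podocytes, the filtering epithelial cells of the glomerulus. Kidney cortex was digested, cells that bound antibodies to nephrin were held on a magnetic column, and their mRNA was sequenced. All mice were wildtype C57BL/6J males. The young group was 4 months old and untreated (n = 6). The saline group was 19.5 months old and had been injected with saline from 18 months of age for 6 weeks (n = 7). The MCC950 group had the same age and schedule and received 10 mg/kg MCC950, a small molecule inhibitor of NLRP3 (n = 8). The young mice were not injected, so age and injection cannot be told apart in any comparison with them. The 3 comparisons share their libraries, and each one's values are given side by side.

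An antibody light chain is made from a V segment joined to a J segment and spliced to a constant region. In the mouse most light chains are kappa, from a locus on chromosome 6, and fewer are lambda, from a locus on chromosome 16. Each mature B lineage cell, as a rule, expresses a single light chain, so that its descendants share the same V segment. Plasma cells, the secreting end stage of the lineage, hold very large amounts of this RNA.

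The label of the cell type was checked on 15 podocyte markers, and each was detected in the young libraries. *Nphs1*, which encodes nephrin, was at 42.7 ± 17.2 CPM (SD, n = 6) in young, 6.25 ± 2.57 (n = 7) in saline and 14.2 ± 6.18 (n = 8) in MCC950 libraries. CPM stands for the count of a gene scaled by library size and TMM, a factor for library composition. Of the 15 markers 14 fell with age by edgeR, and their summed level ranged from 793 to 1717 CPM in young, 333 to 594 in saline and 420 to 688 in MCC950 libraries. Markers of other cells were present in every group. The summed level of 15 plasma cell markers ranged from 195 to 334 CPM in young, 647 to 804 in saline and 311 to 986 in MCC950 libraries. A large part of it in saline was 1 antibody gene of the list, *Jchain*. This gene was at 29.2 ± 17.1 CPM in young, 365 ± 37.9 in saline and 199 ± 152 in MCC950 libraries. The summed level of 12 B cell markers ranged from 41.8 to 301, from 105 to 300 and from 89.2 to 320 CPM in the same order. For 10 macrophage markers it was 437 to 2207, 1580 to 3848 and 1059 to 3933 CPM. For 8 proximal tubule markers it was 1263 to 4106, 1150 to 2756 and 1819 to 4401 CPM. In saline libraries both lay above the sum of the podocyte markers. For 10 T cell markers it was 8.74 to 20.9, 21.5 to 33.2 and 11.6 to 78.9 CPM. For 8 endothelial markers it was 431 to 770, 233.5 to 356 and 195 to 397 CPM. Sums over unlike lists do not give shares of cells. The part of cell composition in the results below was not tested, and in bulk libraries more cells of a type cannot be told apart from more RNA per cell. Total counts ranged from 27375870 to 36827823 in young, 45772937 to 84876399 in saline and 35440472 to 58247271 in MCC950 libraries. The young libraries were thus shallower than all saline libraries.

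The 3′ ends of the segments are shown because the junction with J begins there. The last 60 bases of the annotated transcripts (GENCODE M21, GRCm38) are given 5′ to 3′ on the strand of the gene, and capitals mark the codon of the conserved cysteine before the third complementarity-determining region, which contacts antigen. The first 5 are segments that led the counts of at least 1 library. *Igkv12-41* was called lower with MCC950 against saline, a call that was lost without saline replicate 4, as given below. *Igkv6-20* and *Igkv6-29* are near-identical copies, and *Iglv1* and *Iglv2* are close copies on the lambda locus.
Igkv4-55: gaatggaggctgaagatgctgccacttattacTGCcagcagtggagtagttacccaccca
Igkv3-2: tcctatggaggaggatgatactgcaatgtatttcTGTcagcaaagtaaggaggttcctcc
Igkv4-63: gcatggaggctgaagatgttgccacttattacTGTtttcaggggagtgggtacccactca
Igkv4-70: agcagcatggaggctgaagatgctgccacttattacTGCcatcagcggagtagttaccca
Igkv1-110: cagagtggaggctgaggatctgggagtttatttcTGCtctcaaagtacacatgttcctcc
Igkv12-41: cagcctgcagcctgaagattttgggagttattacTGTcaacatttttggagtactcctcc
Igkv6-20: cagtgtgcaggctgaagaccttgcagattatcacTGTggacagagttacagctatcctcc
Igkv6-29: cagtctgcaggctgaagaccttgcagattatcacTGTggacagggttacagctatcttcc
Iglv1: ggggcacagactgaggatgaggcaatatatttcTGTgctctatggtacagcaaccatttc
Iglv2: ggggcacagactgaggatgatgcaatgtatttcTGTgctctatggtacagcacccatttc

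On GRCm38 *Igkv4-55* lies at chr6:69607275-69607801 (minus strand), *Igkv3-2* at chr6:70698468-70699067 (plus), *Igkv4-63* at chr6:69377944-69378472 (minus) and *Igkv4-70* at chr6:69267888-69268412 (minus). *Igkv1-110* lies at chr6:68270527-68271265 (plus), *Igkv12-41* at chr6:69858420-69858884 (minus), *Igkv6-20* at chr6:70335841-70336479 (minus) and *Igkv6-29* at chr6:70138462-70139082 (minus). The lambda segments *Iglv1* and *Iglv2* lie at chr16:19085017-19085460 and chr16:19260403-19260844, both on the minus strand. The annotation gives each of these 10 as a V gene made of exons.

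Likeness between members limits how far single segments can be told apart. Of the 100 members with an annotated transcript 50 had another member with at least 95% identical bases. The median member had 75.2% of its 50-base windows in no other annotated V segment, and in 16 members fewer than 50% of the windows were unique. The handling of reads with several alignments is not given in the sources used here. *Igkv6-20* and *Igkv6-29* were 98.7% identical, and the count of *Igkv6-29* was between 14.8% and 16.8% of that of *Igkv6-20* in each of the 7 saline libraries, while *Igkv6-20* itself ranged from 213 to 3247 counts there. Among 28 such pairs with counts in every saline library, the highest of these percentages was a median of 9.49 times the lowest, against 1.14 times for this pair. In the 8 MCC950 libraries the percentage ranged from 5.72% to 23.5%, at 34 to 1612 counts of *Igkv6-20*, and in young libraries *Igkv6-29* had at most 4 counts. The calls of *Igkv6-29* are uncertain for this reason, since reads of the pair may not be told apart. Unique windows were also under 50% in other segments named below. These were *Igkv4-59* (25.7%), *Igkv6-20* (35.9%), *Igkv4-70* (36.1%), *Igkv4-55* (46.7%), *Igkv3-5* (48.6%) and *Igkv1-110* (49.1%), whose values have the same limit.

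Light chain V RNA was low in podocyte fractions of young mice and high in those of middle-aged saline-treated mice. Summed over the 101 members, the young libraries ranged from 50.5 to 173 CPM, with a median of 69.6. The saline libraries ranged from 984 to 1626 CPM, with a median of 1166. The groups did not overlap, and the mean of 1237 ± 220 CPM (SD, n = 7) with saline was 13.9 times that of 88.9 ± 47.5 CPM (SD, n = 6) in young. Without the leading segment of each library the ratio was 12.1. In the plot of light chain RNA by library the constant region *Igkc* follows the same order.

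**Figure D1:**
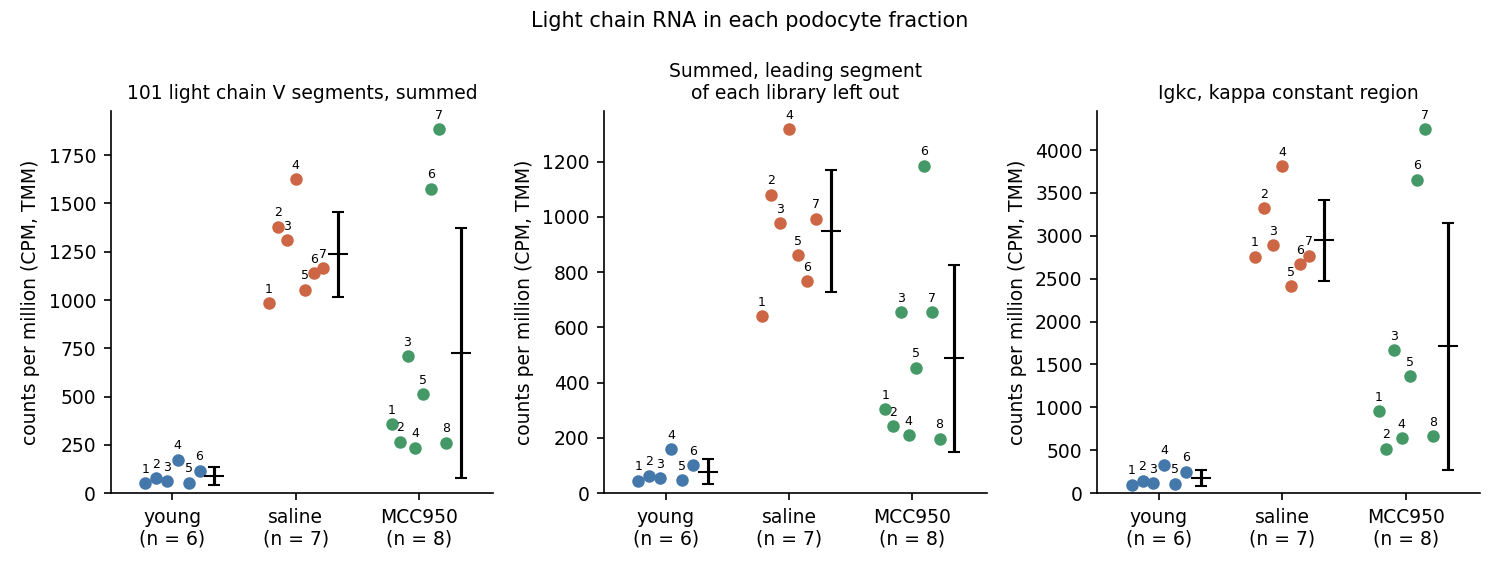
Light chain RNA in each podocyte fraction, in CPM after TMM scaling on linear axes from 0, for the sum of the 101 V segments (left), the same sum without the leading segment of each library (middle) and Igkc (right). Points are libraries with their replicate number, and bars give the mean and SD. Every saline library lies above every young library in all 3 panels, while the MCC950 libraries spread from 235 to 1884 CPM in the left panel.

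*Igkc*, the kappa constant region to which every kappa V segment is spliced, was between 97.9 and 330.1 CPM in young libraries with a median of 129.8. It was between 2412 and 3814 CPM in saline libraries with a median of 2767, again without overlap. Its log2 fold change was 4.07 (SE 0.50, edgeR quasi-likelihood test with Benjamini-Hochberg adjustment, adjusted p = 1.90e-05). An exact two-sided permutation test on the 13 libraries gave p = 0.00117, the smallest it can give. The members summed to 0.51 ± 0.03 of the *Igkc* level in young (n = 6), 0.42 ± 0.03 in saline (n = 7) and 0.42 ± 0.05 in MCC950 libraries (n = 8).

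Of the 101 members 88 passed the filter on low counts that edgeR applies by group. Many of the 88 are near 0 in young libraries and passed through the older ones. With saline against young the calls at an adjusted p under 0.05 were 76 higher and 0 lower, where 12.2% of all 16377 genes tested were higher and 12.4% lower. By the study's own kind of threshold, an unadjusted p under 0.05 and a change of more than 2-fold, 83 were higher, as were 4.04% of all genes. The median log2 fold change of the 88 was 3.63, and that of all genes 0.02. All 88 had a positive fold change, from 1.10 to 8.22. In 41 of the 88 every saline library lay above every young one, as in 4.51% of all genes. With the podocyte marker score as a covariate 4 members were called higher. The podocyte markers fell in the same libraries, as given above, and the part of this in the calls was not tested.

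The members not tested were low or held by 1 library. The 13 had between 12 and 696 counts in all. *Igkv1-132*, with 696 counts, had 98.5% of its saline level in replicate 7, and *Igkv4-81*, with 288, had 93.7% in replicate 4. Of the 12 members tested but not called with age, *Igkv8-34* had a fold change of 5.22 on the log2 scale with a SE of 3.03. It had 2 counts over the 6 young libraries, and 3 of the 7 saline libraries had none. The 13 members not tested add little to the sums, while *Igkv8-34* was at 39.8 CPM in MCC950 replicate 6.

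**Figure D2:**
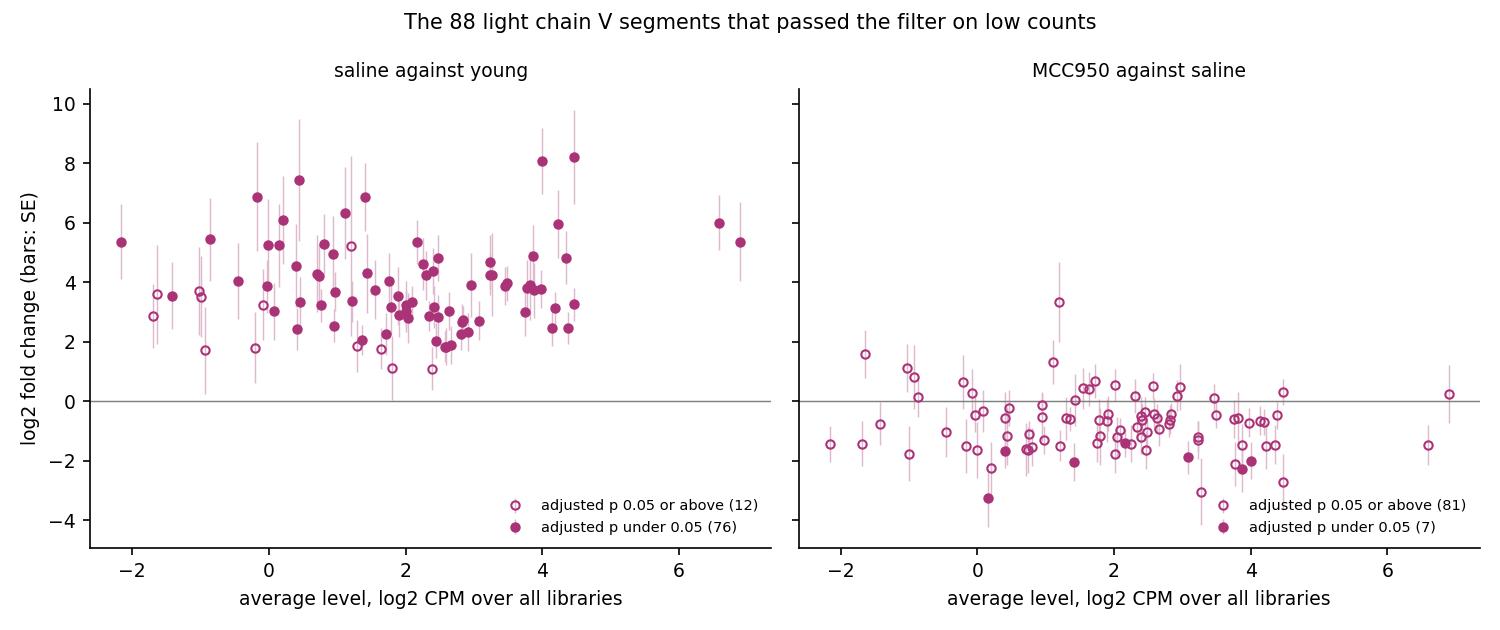
Log2 fold change with its SE against the average level in log2 CPM for the 88 V segments that passed the filter, for saline against young (left) and MCC950 against saline (right). Filled points have an adjusted p under 0.05 (76 on the left, 7 on the right), and the points on the left lie above 0 while those on the right lie on both sides of it.

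The segments with the most RNA per length over all libraries were *Igkv4-55*, at 316 CPM per kilobase of exon, and *Igkv3-2*, at 255. In saline libraries the order was the other way, 399 for *Igkv4-55* and 535 for *Igkv3-2*, and without MCC950 replicate 7 the values over all libraries were 169 and 259. The next was *Igkv4-63* at 62.9, or 18.4 without saline replicate 3, and the 12th of the order, *Igkv12-41*, was at 41.7, or 20.1 without saline replicate 4. These values per length without 1 library were added after the data were seen. *Igkv3-2* was at 4.98, 2.19, 6.81, 2.11, 0.505 and 1.76 CPM in the 6 young libraries. It was at 345, 167, 116.2, 309, 192, 113.9 and 173 CPM in the 7 saline libraries, each far above every young library. With age it rose by 6.0 on the log2 scale (SE 0.93, adjusted p = 0.000129 by edgeR).

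*Igkv4-55* ranged from 0.225 to 11.6 CPM in young libraries, with a median of 1.31. In saline libraries it ranged from 47.6 to 372 CPM, with a median of 74.02, and the groups did not overlap. The log2 fold change was 5.37 (SE 1.33, adjusted p = 0.00569 by edgeR), and 6.17 without young replicate 4. Replicates 2 and 6 of the saline group, at 299.7 and 372 CPM, were well above the rest of their group, where the next was replicate 4 at 165 CPM.

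The largest fold changes belonged to segments almost without counts in young mice. *Igkv4-63* was between 0 and 0.62 CPM in young libraries. In saline libraries it was at 1.23, 11.1, 335, 12.01, 10.5, 13.8 and 11.4 CPM, so replicate 3 alone held 84.8% of the group's level. The log2 fold change of 8.22 (SE 1.58, adjusted p = 0.000797 by edgeR) was 5.72 without that library and 9.06 without young replicate 4. *Igkv6-20* was between 0.0323 and 0.224 CPM in young libraries. In saline libraries it was at 24.6, 51.4, 53.7, 62.8, 2.59, 6.99 and 57.6 CPM, with replicates 5 and 6 far below the other 5. It rose by 8.08 on the log2 scale (edgeR, adjusted p = 4.35e-05), and by 7.87 to 8.39 when each library was left out in turn.

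Other abundant or strongly changed segments rose as well. *Igkv3-5* rose by 5.96 (SE 1.14) and *Igkv6-29* by 6.88 (SE 1.14) on the log2 scale, the latter by 7.69 without young replicate 5. *Igkv4-58* had 3 counts over the 6 young libraries and 668 over the 7 saline libraries, a ratio of 93.7 per library size with a 95% interval of 31.9 to 456, which covers counting error only. Among abundant segments *Igkv1-110* and *Igkv1-117* had smaller log2 fold changes, 2.46 (SE 0.53) and 2.47 (SE 0.60), from young means of 5.69 and 5.09 CPM, and that of *Igkv1-117* was 3.22 without young replicate 6. *Igkv10-96* rose by 3.13 (SE 0.53) and *Igkv6-15* by 3.77 (SE 0.65). *Igkv4-59* rose by 4.83 (SE 0.88), or 4.08 without saline replicate 4, and *Igkv12-41* by 4.90 (SE 1.02), or 3.47 without that library.

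**Figure D3:**
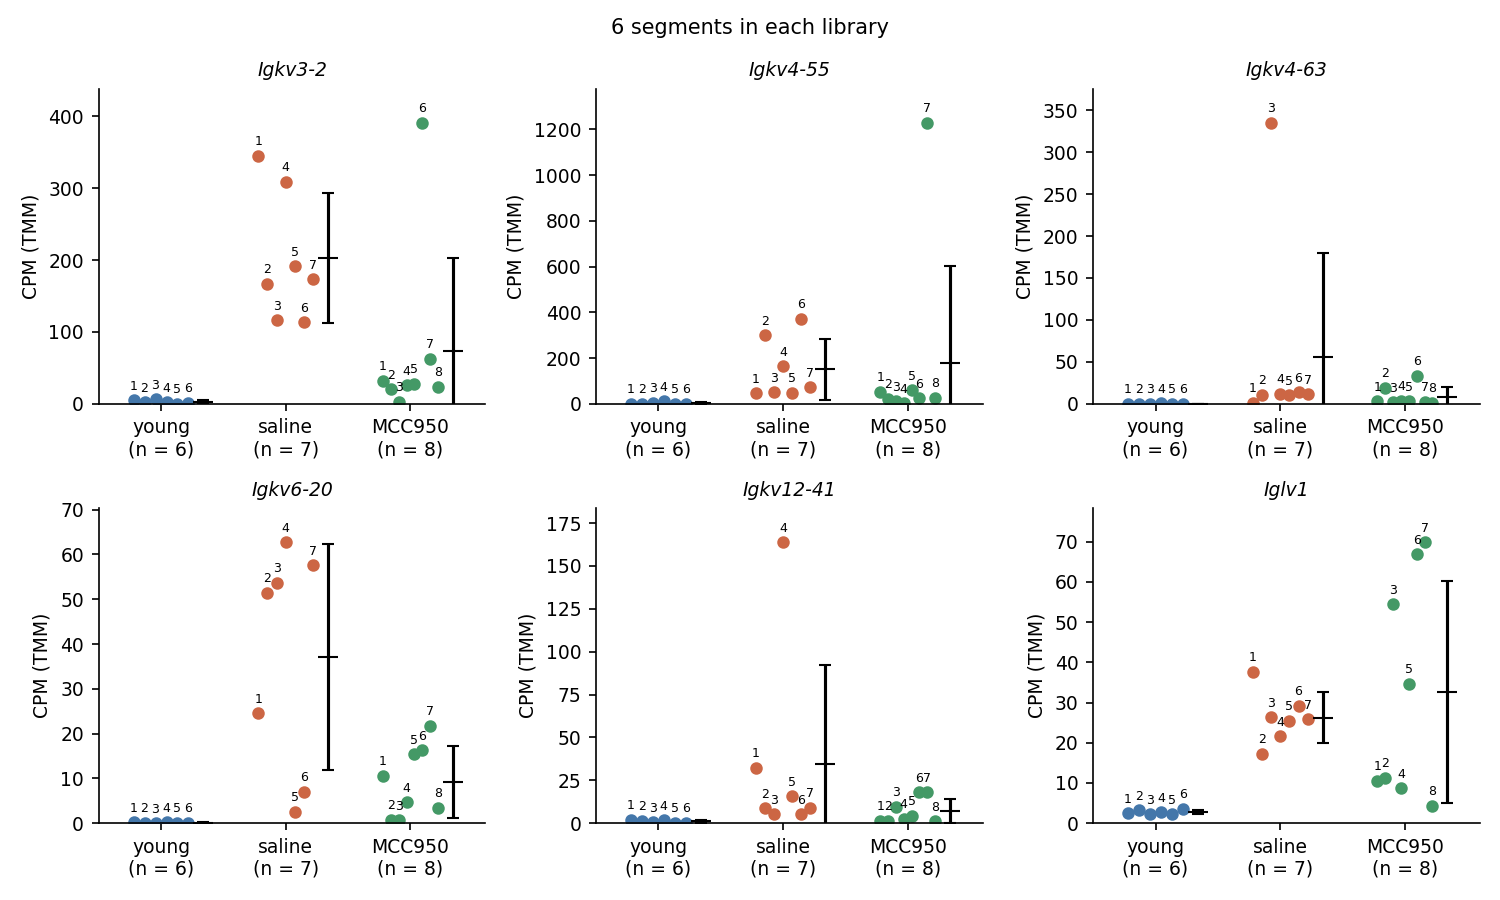
CPM of 6 V segments in each library on linear axes from 0, with replicate numbers, and the mean and SD of each group (bars end at 0 where the SD is larger than the mean). Igkv3-2 and Igkv6-20 are spread over several saline libraries. In saline, Igkv4-63 and Igkv12-41 have 1 library far above the rest of the group, replicate 3 at 335 and replicate 4 at 164 CPM. In MCC950, Igkv4-55 and Igkv3-2 have 1 such library, replicate 7 at 1229 and replicate 6 at 391 CPM.

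Which segments held the counts differed from library to library. *Igkv3-2* led 8 of the 21 libraries and *Igkv4-55* 5, and each of the other 8 libraries had a leader of its own. In saline replicate 1 *Igkv3-2* held 35.0% of the members' counts (95% Wilson interval 34.6 to 35.5, for counting error only). In saline replicate 3 *Igkv4-63* held 25.6% and in saline replicate 6 *Igkv4-55* held 32.7%. The leading share ranged from 8.09% to 18.4% in young, from 14.9% to 35.0% in saline and from 7.69% to 65.2% in MCC950 libraries. The young and saline groups thus overlapped in this share.

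Single libraries also carried segments that were scarce elsewhere. *Igkv4-74*, a segment chosen after its values were seen, was at 143.5 CPM in saline replicate 5, the second of that library with 13.6% of the counts. In the other 6 saline libraries it was between 0.174 and 13.6 CPM. *Igkv6-13* was at 14.4 CPM in young replicate 2, where it led with 18.4%, and at 0.109 CPM or less in the other 5 young libraries. Its log2 fold change with age was 1.11 (SE 1.08, adjusted p = 0.488 by edgeR), and 6.48 with an adjusted p of 0.00124 without that library. Over the members with counts, 47 of 99 in young, 26 of 101 in saline and 27 of 101 in MCC950 had more than 50% of the group's summed CPM in 1 library.

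**Figure D4:**
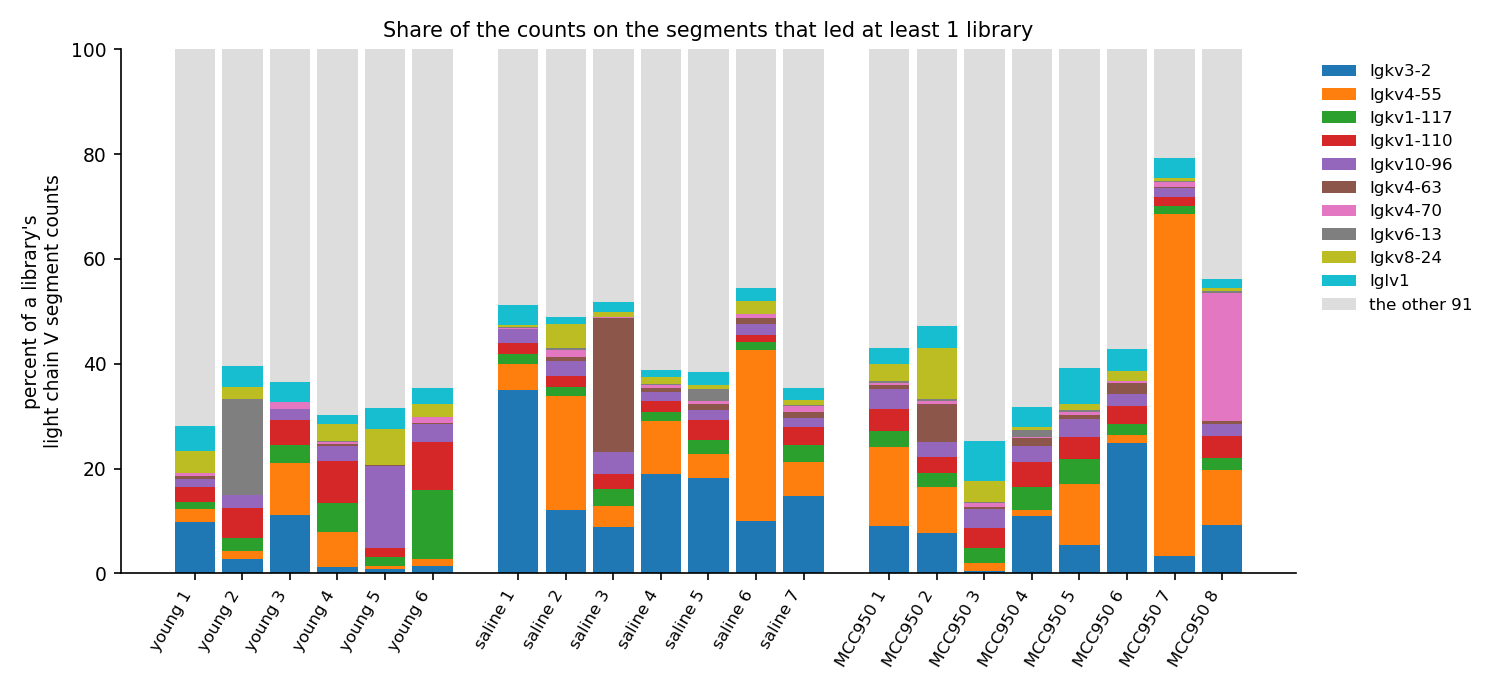
Percent of each library's light chain V segment counts (vertical axis) on the 10 segments that led at least 1 library, stacked by colour, with the other 91 in grey. The same segments recur at unequal shares, and Igkv4-55 reaches 65.2% in MCC950 replicate 7 and Igkv4-70 24.5% in MCC950 replicate 8.

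The breadth of the segments was summarised by the number with at least 10 counts and by an effective number, the exponential of the Shannon entropy of the shares, which is the number of equally abundant segments with the same entropy. At least 10 counts were found for 42.7 ± 9.14 members in young (n = 6), 85.1 ± 4.91 in saline (n = 7) and 78.9 ± 9.78 in MCC950 libraries (n = 8). At equal depth, with every library thinned to 5804891 counts outside the mitochondrial genes, these were 36.3 ± 7.94, 75 ± 2.58 and 66.1 ± 10.8. The effective number ranged from 29.29 to 44.99 in young, 21.3 to 42.9 in saline and 7.18 to 47.9 in MCC950 libraries, with means of 36.5, 28.4 and 33.7. More segments thus reached 10 counts in saline than in young libraries, where the level of the members was also lower. This number rises with that level, so it does not measure breadth alone. The effective number was also taken with the member counts of each library thinned to 970. It was then 35.82 ± 4.996 in young, 26.91 ± 8.009 in saline and 31.85 ± 12.24 in MCC950 libraries. The ranges of the effective number overlapped.

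V segments are grouped into families by sequence, and the families held unequal shares. The 28 members of Igkv4 held 16.6 ± 6.62% of the members' counts in young, 28.8 ± 10.0% in saline and 30.0 ± 19.2% in MCC950 libraries. The 9 members of Igkv3 held 11.4 ± 8.20%, 24.3 ± 8.45% and 13.6 ± 10.96% in the same order. Igkv1, with 9 members, held 12.3 ± 7.29%, 6.62 ± 2.22% and 8.96 ± 3.03%. Of the tested members 19 of 23 in Igkv4, 8 of 8 in Igkv3, 6 of 7 in Igkv1 and 8 of 9 in Igkv6 were called higher with age. Among all genes 12.2% were called higher with age. The shares of the counts held by families are a description and were not tested.

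Along the kappa locus members called higher lay from end to end. The members span chr6:67555636-70704177, and *Igkc* starts at 70726435. Numbered from the far end towards *Igkc*, 4 stretches of equal length had 13 of 16, 16 of 17, 22 of 25 and 22 of 27 tested members called higher with age. Among all genes 12.2% were called higher with age. The median log2 fold changes of the 4 stretches were 2.84, 3.22, 4.25 and 3.71. Segments on the plus strand (27 of 30 called) and on the minus strand (46 of 54) had medians of 3.10 and 3.86. The share of the counts in the third stretch was 25.5 ± 5.69% in young and 37.9 ± 10.2% in saline libraries, and in the stretch farthest from *Igkc* 24.0 ± 6.95% and 11.9 ± 4.87%.

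**Figure D5:**
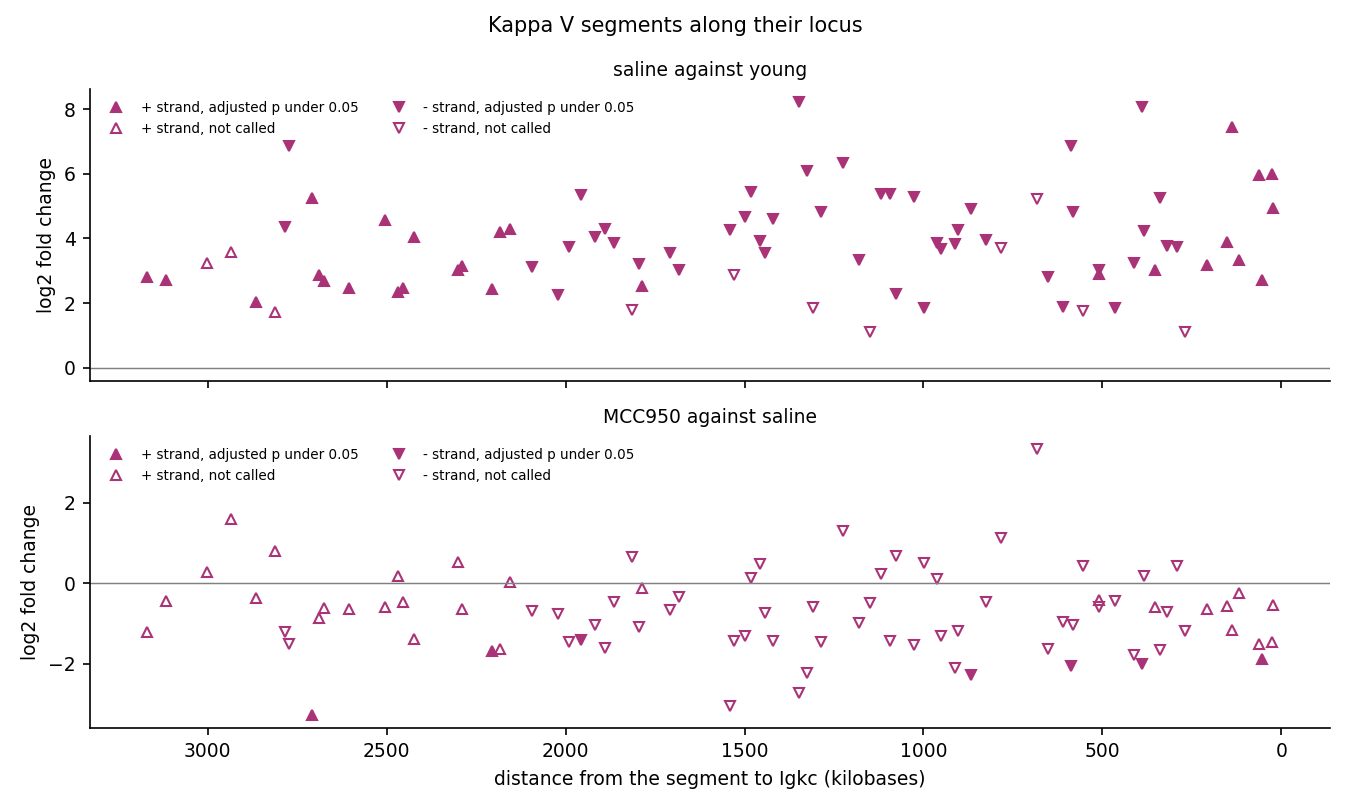
Log2 fold change of the tested kappa V segments against their distance from Igkc in kilobases, for saline against young (top) and MCC950 against saline (bottom). Triangles point up for the plus and down for the minus strand and are filled at an adjusted p under 0.05, and filled points in the top panel occur in all 4 stretches of the locus, with medians of 2.84 to 4.25.

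The 3 lambda segments rose too. *Iglv1* was between 2.19 and 3.55 CPM in young libraries and between 17.3 and 37.7 CPM in saline libraries. In the MCC950 libraries it was at 10.6, 11.3, 54.5, 8.72, 34.7, 66.9, 69.9 and 4.37 CPM, 3 of them above every saline library. The log2 fold change was 3.26 with age (SE 0.55, adjusted p = 0.000265) and 0.32 with MCC950 (SE 0.44, adjusted p = 0.663, both by edgeR). *Iglv2* and *Iglv3* rose by 3.36 (SE 0.69) and 2.05 (SE 0.50) with age, and *Iglv2* had -1.49 with MCC950 (adjusted p = 0.0568 by edgeR), or -1.90, -1.78 and -1.63 with an adjusted p of 0.0159, 0.0263 and 0.0440 without MCC950 replicate 6, MCC950 replicate 7 and saline replicate 1. Lambda segments held 5.25 ± 1.79% of the members' counts in young, 2.92 ± 1.02% in saline and 5.02 ± 1.98% in MCC950 libraries. The highest share, 8.56% (95% Wilson interval 8.27 to 8.87), was in MCC950 replicate 3, the library led by *Iglv1*.

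With MCC950 most libraries had less light chain V RNA than the saline libraries and a few had as much or more. The summed level was 358, 267, 709, 235, 514, 1576, 1884 and 261 CPM in the 8 MCC950 libraries. Of these, 6 lay under the lowest saline library, at 984 CPM, and replicate 7 lay above the highest, at 1626 CPM. The mean of 725.5 ± 645 CPM (n = 8) was 0.586 times the saline mean, and the median of 436 CPM was 0.374 times the saline median. *Igkc* was between 516.5 and 4241 CPM with a median of 1160. For *Igkc* the log2 fold change was -0.78 (SE 0.40, adjusted p = 0.186 by edgeR), and an exact two-sided permutation test of its mean log2 CPM gave an unadjusted p of 0.0208.

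By segment, 68 of the 88 tested members had a negative and 20 a positive fold change with MCC950 against saline. The median was -0.71, and that of all genes 0.00. By edgeR 7 members passed an adjusted p under 0.05 as lower and 0 as higher, where 4.86% of all genes were lower and 11.9% higher. Before adjustment 26 were lower and 1 higher at p under 0.05, and with a change of more than 2-fold as well 24 were lower and 1 higher, against 1.03% and 1.68% of all genes. DESeq2 called 8 lower and 0 higher. The share of all genes was not counted for DESeq2, for p under 0.05 alone or for the fits without 1 library. In 0 members the MCC950 libraries lay all below or all above the saline libraries, as in 0.586% and 1.15% of all genes. The count of 7, which rests on single libraries, was 23 without MCC950 replicate 6, 13 without MCC950 replicate 7 and 11 without saline replicate 1. It was 3 without saline replicate 2 or MCC950 replicate 5, and 2 without saline replicate 3, 4 or 7 or MCC950 replicate 1, 4 or 8.

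*Igkv6-20* was at 10.6, 0.777, 0.721, 4.70, 15.4, 16.2, 21.7 and 3.45 CPM in the MCC950 libraries, against a saline median of 51.4. The groups overlapped, since saline replicates 5 and 6 were at 2.59 and 6.99 CPM. It fell by 2.0 on the log2 scale (SE 0.63, adjusted p = 0.0346), and *Igkv6-29*, whose reads may not be told apart from it, had -2.05 (SE 0.64, adjusted p = 0.0328, both by edgeR). *Igkv3-4* fell by 1.89 on the log2 scale (SE 0.56, adjusted p = 0.0258), *Igkv4-91* by 1.41 (SE 0.48, adjusted p = 0.0477) and *Igkv12-41* by 2.27 (SE 0.77, adjusted p = 0.0457, all by edgeR). In *Igkv12-41* the saline mean of 34.3 CPM rested on replicate 4 at 164 CPM, and without it the log2 fold change was -0.83 with an adjusted p of 0.412. Leaving out any of the 15 libraries other than saline replicate 5 ended at least 1 of these 5 calls, with an adjusted p of up to 0.0770 for *Igkv6-20*, 0.0764 for *Igkv6-29*, 0.0741 for *Igkv3-4* and 0.110 for *Igkv4-91*.

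The leading segments with MCC950 depended on 1 library each. *Igkv4-55* was at 54.1, 23.5, 11.2, 2.69, 59.8, 24.0, 1229 and 27.7 CPM, so replicate 7 held 85.8% of the group's level. Set against saline it had a log2 fold change of 0.24 (SE 0.98, adjusted p = 0.892), and -2.38 with an adjusted p of 0.0206 without replicate 7 (edgeR). *Igkv3-2* was at 32.3, 20.7, 3.27, 25.7, 27.9, 391, 62.9 and 24.0 CPM, and 7 of these 8 libraries were under the lowest saline library, at 113.9 CPM. The log2 fold change was -1.46 (SE 0.67, adjusted p = 0.139), and -2.85 with an adjusted p of 0.00112 without replicate 6 (edgeR). *Igkv3-5*, at 83.1 CPM in replicate 6 and at most 9.74 CPM in the other 7, had -1.51 (SE 0.77, adjusted p = 0.184) and -3.30 with an adjusted p of 0.00110 without replicate 6. *Igkv4-63* had -2.72 (SE 0.94, adjusted p = 0.0507), -0.24 without saline replicate 3 and -3.50 with an adjusted p of 0.0168 without MCC950 replicate 6. It also passed the threshold without saline replicate 1 or 5 or MCC950 replicate 2, with an adjusted p of 0.0290, 0.0437 and 0.0462. *Igkv4-70*, the leader of replicate 8 at 63.9 CPM, had 0.48 (SE 0.77, adjusted p = 0.705), and -0.85 without replicate 8.

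Against young mice the MCC950 libraries were still higher in most segments. By edgeR 65 of the 88 tested members were called higher and 0 lower, where 21.8% of all genes were higher and 16.5% lower. With an unadjusted p under 0.05 and more than 2-fold 73 rose and 0 fell, against 4.05% and 4.32% of all genes. The median log2 fold change was 2.68, and that of all genes 0.08. In 8 of the 88 every MCC950 library lay above every young one, as in 3.28% of all genes, and in 0 every one lay below, as in 4.66%. The 8 included *Iglv1*, *Igkv4-63* and *Igkv6-20*. The log2 fold change of *Igkv3-2* was 4.54 (SE 0.87), or 3.16 without MCC950 replicate 6. That of *Igkv4-55* was 5.61 (SE 1.34), or 2.99 without MCC950 replicate 7 and 6.44 without young replicate 4. *Igkv8-34* had 2 counts in young and 2336 in MCC950 libraries, of which replicate 6 held 93.9% of the level. The ratio per library size was 428, with a 95% interval of 118 to 3537 for counting error only. The adjusted p of 0.0116 by edgeR was 0.0572 without that library, with a log2 fold change of 4.74 in place of 8.55. Without young replicate 1 the young group had no count, and no fold is given. With the podocyte marker score as a covariate 12 members were called higher.

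Other genes of the antibody pathway were read from lists chosen with earlier results in view. Of the constant, joining and J chain genes 16 of 18 were tested, and 13 were higher with age, 0 lower, and 0 were called with MCC950 against saline by edgeR. Among all genes 12.2% were higher and 12.4% lower with age, and 11.9% were higher and 4.86% lower with MCC950 against saline. *Ighm*, the constant region of the IgM heavy chain, rose from 216 ± 88.97 to 3838 ± 960 CPM, and *Igha*, that of IgA, from 127 ± 85.3 to 1246 ± 384 CPM. The lambda constant regions *Iglc1*, *Iglc2* and *Iglc3* rose by 3.56, 2.82 and 2.25 on the log2 scale (SE 0.57, 0.44 and 0.45). *Jchain*, which joins the subunits of IgM and IgA, rose from 29.2 ± 17.1 to 365 ± 37.9 CPM with age and was at 199 ± 152 CPM with MCC950.

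Genes that start recombination were near 0. *Rag1* and *Rag2*, which cut the segments before joining, and *Dntt*, which adds bases at the junctions, had group means of at most 0.0221 CPM and were not tested. Genes of general DNA end joining were present, such as *Lig4*, a DNA ligase, at 5.01, 4.15 and 4.09 CPM on average in young, saline and MCC950 libraries. Of the 12 genes of V(D)J recombination and the surrogate light chain 7 were tested and 0 were called with age or with MCC950 against saline by edgeR. Among all genes 12.2% were higher and 12.4% lower with age, and 11.9% were higher and 4.86% lower with MCC950 against saline.

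Of 14 transcription factors of the kappa locus 4 were higher with age, *Pou2f2*, its coactivator *Pou2af1*, *Irf4* and *Rela*, with log2 fold changes of 0.80, 1.27, 0.86 and 0.31, and 0 were called with MCC950 against saline. Of all genes 12.2% were higher with age, and 11.9% higher and 4.86% lower with MCC950 against saline. Of 9 Fc receptors and their subunits 3 were higher with age. These were *Pigr*, which carries IgA and IgM across epithelia, by 1.05, *Fcer1g*, the signalling chain that Fc receptors share, by 1.04 and *Fcgr2b*, an inhibitory receptor of IgG, by 0.70. *Trim21*, a receptor in the cytosol, fell by 0.52 on the log2 scale with MCC950 against saline (edgeR, adjusted p = 0.0202).

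Markers of the lineage are read against the 12.2% of all genes that were higher with age. Of 15 plasma cell markers 10 were higher and 0 lower, among them *Jchain*, *Mzb1* (log2 fold change 2.85), *Derl3* (2.80) and *Tnfrsf17* (2.27). Those not called were *Xbp1* (0.22), *Prdm1* (0.32), *Fkbp11* (0.03), *Tent5c* (0.46) and *Slamf7* (0.48). With MCC950 against saline 1 of the 15 was lower, *Sdc1* (-0.65, adjusted p = 0.0133 by edgeR), where 4.86% of all genes were lower. Of 12 B cell markers 2 were higher with age, a share near that of all genes, *Cd79b* (0.99) and *Cd37* (0.93), while *Ms4a1* had 0.40 with an adjusted p of 0.492. Of 10 T cell markers 4, and of 10 macrophage markers 2, were higher with age. The difference between these lists was not tested. The part of these cells in the light chain values was not tested.

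Outside the immunoglobulin genes, the 5 genes whose level was most alike to the summed level of the members over the 21 libraries were *Jchain*, *Derl3*, *Slpi*, *Mzb1* and *Txndc5*. Their Spearman rho was 0.974, 0.970, 0.961, 0.958 and 0.949, given as a description over libraries of 3 groups that differ in depth and composition. *Mzb1*, a chaperone of antibody assembly in plasma and marginal zone B cells, was between 0.646 and 2.93 CPM in young, 8.65 and 13.4 in saline and 2.93 and 23.0 in MCC950 libraries. *Derl3*, a component of endoplasmic reticulum quality control, was between 0.249 and 1.46, 4.44 and 5.82, and 1.20 and 9.14 CPM in the same order. In both genes the saline libraries lay above every young library, and the MCC950 libraries lay on both sides of the saline range.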

How the data were processed

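Gene-level read counts of mRNA-seq libraries from nephrin-sorted podocyte fractions were used as the authors deposited them, without normalization. The authors trimmed reads with Trim Galore, aligned them to mm10 (GRCm38) with Bowtie2 and counted them per gene with featureCounts. The annotation, strand setting and handling of reads with several alignments are not given in the sources used here. The authors' normalized table was not used. Groups came from the labels. Each library comes from a single mouse per the methods, so replicates are mice. Ages come from the methods, which list 5 control mice of 4 months against 6 young libraries in the labels, of which none was left out.

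Gene names came from RefSeq for 25275 Entrez numbers and GENCODE for 18, and 1886 stayed unnamed. Another 59 segments named in RefSeq were not analysed here. The test was the quasi-likelihood F test of edgeR 4.0.16 (R 4.3.3), after filterByExpr by group and TMM scaling, with all 3 groups in 1 fit over 16377 genes, with Benjamini-Hochberg adjustment. Log2 CPM used a prior count of 2. DESeq2 1.42.0, other normalizations, filters, the study's threshold, thinning, a podocyte covariate, replicate number as a block and leaving out each library were alternatives. Single values were compared by exact permutation tests in scipy 1.17.1. The scripts were tested on simulated counts. No pair of libraries was a duplicate (lowest chi-square per degree of freedom 17.7).

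Members named are the 12 highest per kilobase, the 6 largest rises and falls per comparison with adjusted p under 0.05 and at least 1 log2 CPM, all lambda segments, the leader of each library and those beside the count threshold. The members and lists were chosen with earlier results of these data known. Identity is the percent of equal bases between aligned GENCODE M21 transcripts. Promoters and recombination signals of these segments were not analysed here. Some genes of the lists are not reported here.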

Additional observations from a re-analysis of the deposited data

Results flagged for a closer look

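Of 87 groups of values examined for a single library far from the rest of its group, 6 had one, where chance gives about 5% of groups. The share of the leading segment was 65.21% in MCC950 replicate 7, on *Igkv4-55*, against at most 24.8% in the other 7 libraries of that group. *Igkv4-63* was at 8.39 log2 CPM in saline replicate 3. In young mice *Igkv6-13* was at 3.85 log2 CPM in replicate 2, and *Igkv8-34* and *Igkv5-37* were at -3.47 in replicate 1 and -2.84 in replicate 2, as the only young libraries with a count of these segments. *Igkv8-24* was at -4.63 log2 CPM in young replicate 3, the only young library without a count of it.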

How the results depend on the processing

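The count of 76 members higher with age was 70 to 79 when each library was left out, and the 65 with MCC950 against young 52 to 67. Counts of members lower with age or higher with MCC950 against saline were 0 in each of these fits. With the podocyte marker score as a covariate the counts were 4 and 12. The count of 7 lower with MCC950 against saline ranged from 2 to 23 over left-out libraries, and was 24, with 1 higher, at an unadjusted p under 0.05 and more than 2-fold. Libraries with the same replicate number had correlations of deviations from -0.144 to 0.401. These were over 0.1 in 2 of 6 pairs of saline and young, 3 of 7 of MCC950 and saline and 3 of 6 of MCC950 and young. No correlation was computed between libraries with different numbers, so whether the numbers pair the libraries cannot be said. With the replicate block the counts were 62, 7 and 47, *Igkv4-55* with MCC950 against saline was -1.87, *Igkv4-70* -1.14, and *Igkv6-13* with MCC950 against young 2.98. The share of all genes called was not counted in the alternative fits.

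Some log2 fold changes that were not called changed sign. With the covariate *Igkv6-13* was -1.21 with age and *Igkv4-55* -0.29 with MCC950 against saline, and by DESeq2 *Igkv8-34* was -0.59. Over left-out libraries *Igkv6-13* ranged from -0.26 to 6.48 with age, from -1.56 to 0.20 with MCC950 against saline and from -0.45 to 5.31 with MCC950 against young. In the same fits, with MCC950 against saline, *Igkv4-55* ranged from -2.38 to 0.67, *Igkv8-34* from -0.47 to 4.24 and *Igkv4-70* from -0.85 to 0.85. The cause was not tested.

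Without mitochondrial genes the summed level was 258.3 CPM in young, 3597 in saline and 2110 in MCC950 libraries. The inverse Simpson index was 23.17, 13.0 and 19.71 in place of the effective number. Members with at least 1 count numbered 73.17, 96.71 and 94.38, and those with at least 10 counts after thinning 75 in saline and 66.12 in MCC950 libraries. Depth limits segments with few counts in young libraries, 7 of which had 1 to 3 counts over that group.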
